A study of Mus musculus with 27 samples.

Results

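The genes examined here are 38 genes that make, sense and carry sterols and fatty acids in mouse rectum, namely the enzymes of cholesterol synthesis, the SREBP transcription factors with the proteins that hold or release them, the sterol carriers and targets of the liver X receptor (LXR), and the enzymes of fatty acid synthesis. They were chosen by symbol, and 35 of the 38 were found among the 19690 genes of the count table and all of these passed the filter on low counts. They comprised 6 of 7 genes of the mevalonate pathway, 10 of 11 from squalene to cholesterol, 5 of 5 SREBP genes and regulators, 6 of 7 sterol carriers and LXR genes, and 8 of 8 genes of fatty acid synthesis. Mvd, Tm7sf2 and Nr1h3 were not analysed here.

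RNA was sequenced from longitudinal pieces of rectum of 27 female C57BL/6J mice, aged 8 to 10 weeks at the start, 3 mice to a group and 9 groups in all. Mice of 5 groups received a single exposure of 25 Gy of X-rays over 1 cm of the lower pelvis, with the body otherwise shielded by lead, and were killed post-irradiation (PI) at 4 h or at 1 day, at 3 days, and after 2 or 8 weeks. The 4 sham groups were anesthetized without irradiation and killed at 4 h, 3 days, 2 weeks or 8 weeks, so all 9 groups had been anesthetized, and the sham mice at 4 h are the controls for 1 day PI too. The comparisons at 4 h and 1 day PI therefore share their control mice, and at 1 day PI irradiation and the time of collection cannot be told apart. No transgene or other allele was used. The piece of tissue is a mixture of epithelium, muscle, nerve and immune cells, and fewer cells of a type and less RNA per cell cannot be told apart in any value given here.

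Cholesterol is built from acetyl-CoA through mevalonate and squalene, and fatty acids are built from the same acetyl-CoA. When sterols are scarce in the membrane of the endoplasmic reticulum, SCAP escorts the SREBP proteins to the Golgi, where they are cut and released to switch on these enzymes, and when sterols are plentiful the INSIG proteins hold SCAP and SREBP back. LXR works in the other direction, since it is activated by oxysterols and switches on exporters such as ABCA1 and ABCG1 as well as Srebf1. In the gut epithelium the pair ABCG5 and ABCG8 pumps sterols back into the lumen.

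Totals were 17966356 to 23281174 counts per library (median 19777800), so differences in depth between libraries were small. Levels are given as counts scaled to a common library size (CPM) after TMM scaling over all 27 libraries, and each fold change comes from a fit of edgeR's quasi-likelihood test to the groups compared, with p-values adjusted by the Benjamini-Hochberg method over all genes tested. A gene is called at an adjusted p under 0.05. The study's stricter thresholds, which define a DEG, were 0.01 for the adjusted p and 1 for the absolute log2 fold change. Markers of the labelled tissue were present in all libraries, with the colonocyte gene Car1 at 33.5 CPM or more, the goblet cell gene Muc2 at 589 CPM or more and the muscle gene Des at 351 CPM or more. Some libraries stood apart in their makeup. The 7 squamous epithelium markers summed to 3287 to 7103 CPM at 8 weeks PI, against 1.90 to 3.22 CPM in the sham mice at 8 weeks, and to at most 241 CPM in the other 21 libraries. The 6 adipocyte markers summed to 293 CPM in mouse 3 at 3 days PI and to 169 and 416 CPM in mice 2 and 3 at 8 weeks PI, and to at most 88.2 CPM in the other 24 libraries. The 6 neutrophil markers summed to 3674, 866 and 19629 CPM in mice 1, 2 and 3 at 2 weeks PI and to 241 to 723 CPM at 8 weeks PI, and to at most 2.39 CPM in the other 21 libraries.

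RefSeq promoters, from 250 bases before to 50 after a start site in GRCm38.p6, were matched by symbol for 27 of the 35 genes. The sterol regulatory element TCACNCCAC, the site SREBP is known to bind, was searched on both strands and was held by 1 of the 27 genes (3.70%), against 388 of 27025 genes with a promoter (1.44%). The box CCAAT, which NF-Y binds beside SREBP at many sterol genes, was searched on both strands and was held by 21 of the 27 genes (77.8%), against 11096 of 27025 genes (41.1%), and by all 8 genes with a promoter from squalene to cholesterol. For the LXR direct repeat only an exact match was sought, and it was found in none of the 27 and in 4 of the 27025 genes. So strict a match is too rare for its absence from the 27 to tell anything of the members. A match is a description of the letters and no evidence of binding. The promoters of Hmgcs1, Idi1 and Msmo1 are examples of sterol synthesis genes far lower in sham mice at 2 weeks than at 4 h. That of Acss2 is shown because the gene was low in every irradiated group. That of Abcg8 is shown because it runs head to head with that of Abcg5. Both of these genes were higher in irradiated mice at 1 day than in irradiated mice at 4 h. Capitals mark the sterol regulatory element, which was TCACCCCAC in Hmgcs1 at -137 from the start site, and CCAAT or its complement ATTGG. No stretch of capitals holds both motifs. They lie at chr13:119690101-119690400 (plus strand, Hmgcs1), chr13:8885356-8885655 (plus strand, Idi1), chr8:64733529-64733828 (minus strand, Msmo1), chr2:155517793-155518092 (plus strand, Acss2) and chr17:84682871-84683170 (plus strand, Abcg8), and the Abcg5 promoter overlaps the last on the minus strand at chr17:84682962-84683261.
Hmgcs1: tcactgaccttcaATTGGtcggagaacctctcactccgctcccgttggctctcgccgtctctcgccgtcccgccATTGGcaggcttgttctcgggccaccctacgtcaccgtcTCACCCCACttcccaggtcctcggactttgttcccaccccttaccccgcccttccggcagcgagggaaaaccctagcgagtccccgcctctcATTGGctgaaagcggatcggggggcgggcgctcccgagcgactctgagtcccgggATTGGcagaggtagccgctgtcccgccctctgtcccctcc
Idi1: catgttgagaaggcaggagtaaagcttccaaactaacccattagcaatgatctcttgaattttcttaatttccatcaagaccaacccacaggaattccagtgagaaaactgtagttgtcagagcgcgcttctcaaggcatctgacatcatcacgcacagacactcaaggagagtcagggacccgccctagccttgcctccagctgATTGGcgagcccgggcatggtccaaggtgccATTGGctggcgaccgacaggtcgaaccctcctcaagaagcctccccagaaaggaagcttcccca
Msmo1: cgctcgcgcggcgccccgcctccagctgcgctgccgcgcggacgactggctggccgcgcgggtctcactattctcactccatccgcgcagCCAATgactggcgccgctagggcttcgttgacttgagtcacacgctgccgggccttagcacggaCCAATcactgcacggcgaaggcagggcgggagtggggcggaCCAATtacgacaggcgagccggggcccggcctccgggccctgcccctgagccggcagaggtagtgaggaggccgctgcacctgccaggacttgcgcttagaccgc
Acss2: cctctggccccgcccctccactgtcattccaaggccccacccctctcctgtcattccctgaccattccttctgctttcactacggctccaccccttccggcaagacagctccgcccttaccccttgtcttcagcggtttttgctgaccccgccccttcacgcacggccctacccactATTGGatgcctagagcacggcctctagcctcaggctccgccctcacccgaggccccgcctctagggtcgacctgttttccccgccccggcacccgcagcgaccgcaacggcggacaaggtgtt
Abcg8: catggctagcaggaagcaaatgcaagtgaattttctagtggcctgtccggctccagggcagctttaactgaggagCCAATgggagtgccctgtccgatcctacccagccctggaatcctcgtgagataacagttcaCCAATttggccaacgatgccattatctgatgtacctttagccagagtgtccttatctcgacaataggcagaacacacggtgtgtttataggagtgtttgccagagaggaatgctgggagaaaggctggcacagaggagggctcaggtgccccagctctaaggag

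Per length, in the FPKM values the authors deposited, the mean levels in the 4 sham groups ran between 1.96 and 540.4 FPKM among the members. Scd2, the desaturase of most tissues outside the liver, had the highest mean in each sham group, between 195 and 540.4 FPKM. Fads2 had 162 to 206 FPKM and came below Hmgcs1 in sham mice at 4 h and 3 days. Hmgcs1 had 46.8 to 240 FPKM, Fdps 48.8 to 177 FPKM and Msmo1 38.8 to 185 FPKM, so their ranges overlapped. The lowest were Abca1 with 1.96 to 3.90 FPKM, Abcg1 with 2.94 to 4.09 FPKM and Abcg8 with 3.33 to 5.76 FPKM. Scap and Insig2 were steady, at 17.97 to 20.9 FPKM and 18.6 to 21.1 FPKM.

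The first question was how far these genes moved between the sham groups, which no irradiation separates. They moved more than most genes. The sterol synthesis genes were far lower in sham mice at 2 weeks than in sham mice at 4 h, and 22 of the 35 members were called lower and 0 higher, against 3.67% of all genes tested called lower and 2.94% called higher. All 6 genes of the mevalonate pathway (median log2 fold change -1.80) and 9 of 10 from squalene to cholesterol (median -1.88) were among them, whereas the median over all genes tested was 0.01. In sham mice at 8 weeks 18 members were called lower and 1 higher than in sham mice at 4 h, against 1.53% and 1.29% of all genes. Sham mice at 3 days and at 4 h gave no called member and no called gene in edgeR (0.00% lower and 0.00% higher). At an unadjusted p under 0.05 that comparison had 5 members and 2299 genes. DESeq2 called 3 members there, with its count over all genes not given here.

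Over the 4 sham means, sham mice at 2 weeks had the lowest value in 27 of 35 members (77.1%) and in 27.2% of all 15930 genes past the filter over 27 libraries. The highest value lay in sham mice at 4 h in 20 members (57.1%), against 18.4% of all genes. The range of the 4 sham means was 0.96 on the log2 scale for the median member and 0.43 for the median gene. The largest of the 5 radiation effects was 1.12 for the median member and 0.66 for the median gene, and it exceeded the range of the sham means in 17 of 35 members (48.6%), against 11532 of 15930 genes (72.4%). The age of the mice and the day of collection went with the sham groups and cannot be told apart from the time after the sham procedure. The 7 surface colonocyte markers summed to 3621 to 4835 CPM in sham mice at 2 weeks, 6062 to 6503 CPM in sham mice at 8 weeks and 3968 to 7482 CPM in sham mice at 4 h, and their part in the drift was not tested. The count of called members at 8 weeks moved when single libraries were left out. It was 12 without sham mouse 1 at 4 h. It was 11 without sham mouse 2 at 8 weeks and 12 without sham mouse 3 at 8 weeks. Leaving out some other library raised it, and 11 of the 19 members kept their call with each library left out in turn. Such fits have fewer mice for every gene, and their share of all genes called is not given here.

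**Figure D1:**
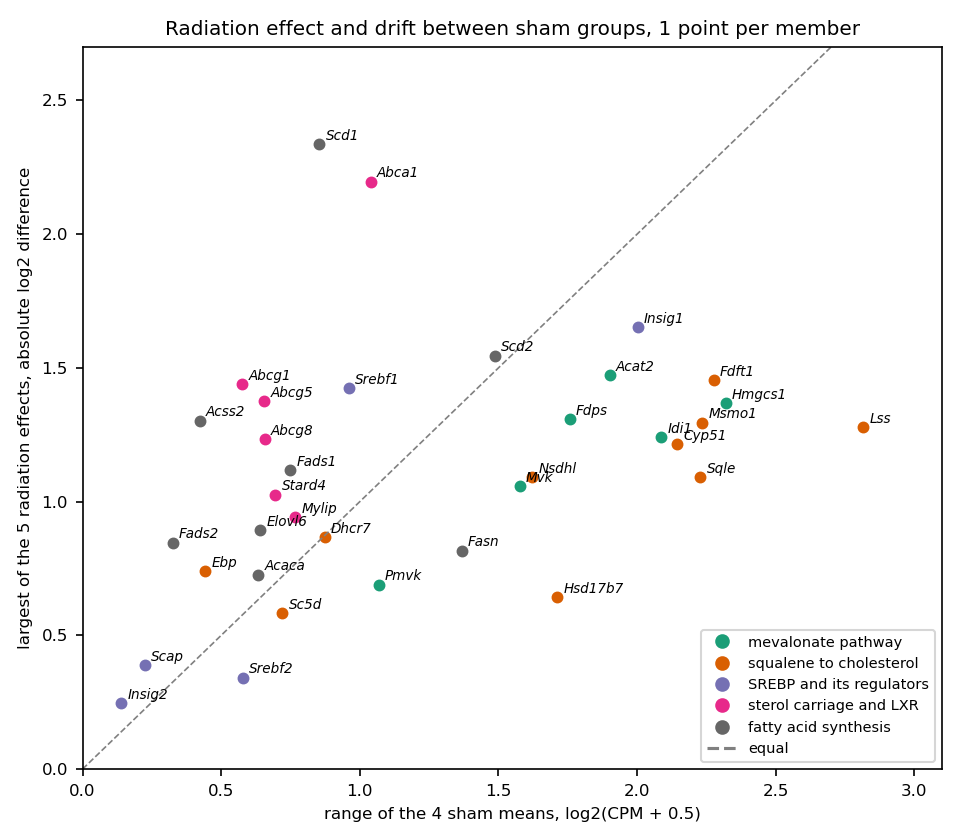
Each point is 1 of the 35 members, with the range of its 4 sham means on the x axis and the largest of its 5 radiation effects on the y axis, both on the log2(CPM + 0.5) scale. The 17 members above the dashed line of equality include Acss2, Fads2, Abca1 and Scd1, and 15 of the 16 mevalonate and squalene to cholesterol genes lie below it, with Lss at the widest sham range (2.82).

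Against the shams of each comparison, nearly all members called in the first days PI were lower and nearly all called at 2 weeks PI were higher. At 4 h PI 13 members were called lower and 0 higher, against 5.72% and 5.78% of all genes, and 5 of them (Srebf1, Insig1, Hmgcs1, Scd2 and Stard4) were DEGs, against 2.16% of all genes. The median log2 fold change of the 35 was -0.76, against 0.00 for all genes tested. At 1 day PI 12 were lower and 1 higher, against 2.03% and 1.97% of all genes, and 2 (Acat2 and Acss2) were DEGs, against 1.00%. The median was -0.73. The controls at 1 day PI were the sham mice at 4 h, so irradiation and the time of collection cannot be told apart there. At 3 days PI 6 were lower and 1 higher, against 10.1% and 10.4% of all genes, and Acss2 was the only DEG (3.79% of all genes). The median was -0.35. Same-numbered irradiated and sham mice deviated together at 3 days, and with the replicate number as a block 15 members were lower and 3 higher, against 14.1% and 14.7% of all genes in that fit. The 15 included 4 genes of the mevalonate pathway (Acat2, Mvk, Idi1 and Fdps) and 6 from squalene to cholesterol (Cyp51, Msmo1, Nsdhl, Ebp, Sc5d and Dhcr7).

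At 2 weeks PI 14 members were higher and 1 lower than in the shams of that time, against 16.5% and 9.30% of all genes, and Fdps, Acat2 and Fdft1 were DEGs (5.86% of all genes). The median log2 fold change of the 35 there was 0.595. At 8 weeks PI 7 were higher and 6 lower, against 21.5% and 16.5% of all genes, shares close to the background, and Acss2, Fads1 and Abca1 were DEGs (14.7% of all genes). The rise at 2 weeks PI depended on which shams served as controls. Against the sham mice at 4 h, 1 member was higher and 17 lower at 2 weeks PI, against 15.2% and 6.78% of all genes, and 11 of the 14 called higher changed sign. Against the mean of the 4 sham groups 5 were higher and 8 lower, against 30.0% and 22.5% of all genes. The irradiated mice at 2 weeks PI thus lay between the sham mice at 2 weeks and those at 4 h for most sterol genes. Over all 35 members, 20 (57.1%) had their 2 weeks PI mean within the span of the 4 sham means, against 31.5% of all genes, and at 8 weeks PI 22 (62.9%) did, against 32.9%. Against the sham mice at 4 h the members at 8 weeks PI gave 21 lower and 2 higher, against 14.9% and 21.9% of all genes.

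Single libraries moved these counts. At 1 day PI 13 called members became 5 without sham mouse 1 at 4 h, 6 without irradiated mouse 2 and 7 without irradiated mouse 3. At 3 days PI 7 became 4 without sham mouse 2, and 2, 3 and 4 without irradiated mouse 1, 2 and 3. At 2 weeks PI 15 became 3 without sham mouse 1 and 3 without sham mouse 3. At 8 weeks PI 13 became 8, 7 and 6 without sham mouse 1, 2 and 3. Leaving out some other library raised the count at 2 and at 8 weeks PI, and it did so at 3 days PI too. No library left out raised the count at 1 day PI. Such fits have fewer mice for every gene, and their share of all genes called is not given here. A changed count or a lost call there does not show a change particular to the members. Of the members called, 8 of 13 at 4 h, 2 of 13 at 1 day, 2 of 7 at 3 days, 3 of 15 at 2 weeks, 6 of 13 at 8 weeks PI and 17 of 22 in the sham mice at 2 weeks kept their call with each library left out in turn.

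**Figure D2:**
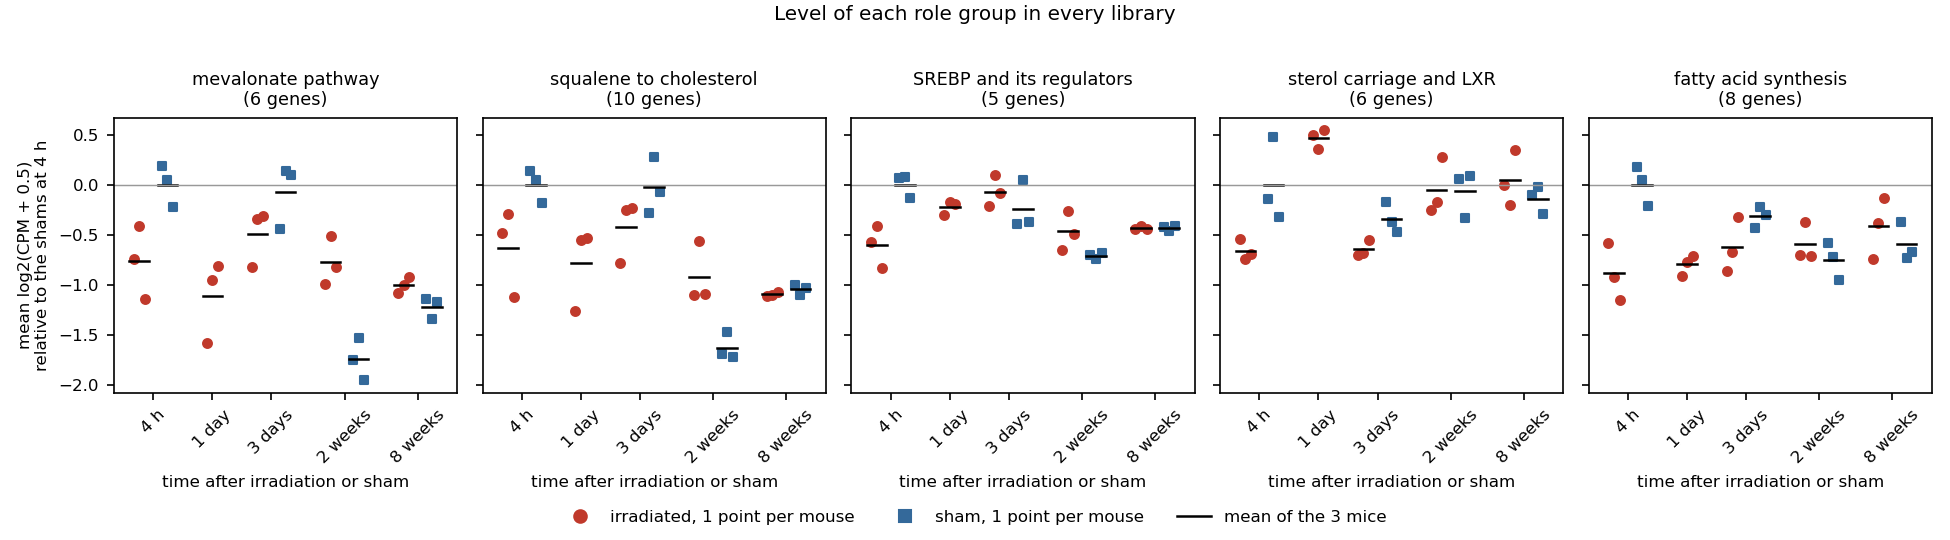
Each point is 1 mouse, with the mean log2(CPM + 0.5) of a role group relative to the sham mice at 4 h on the y axis and time on the x axis, irradiated mice as circles to the left of sham mice as squares, and bars for the mean of 3 mice. The sham mice at 2 weeks have the lowest mean of the mevalonate and the squalene to cholesterol genes among the 9 groups.

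**Figure D3:**
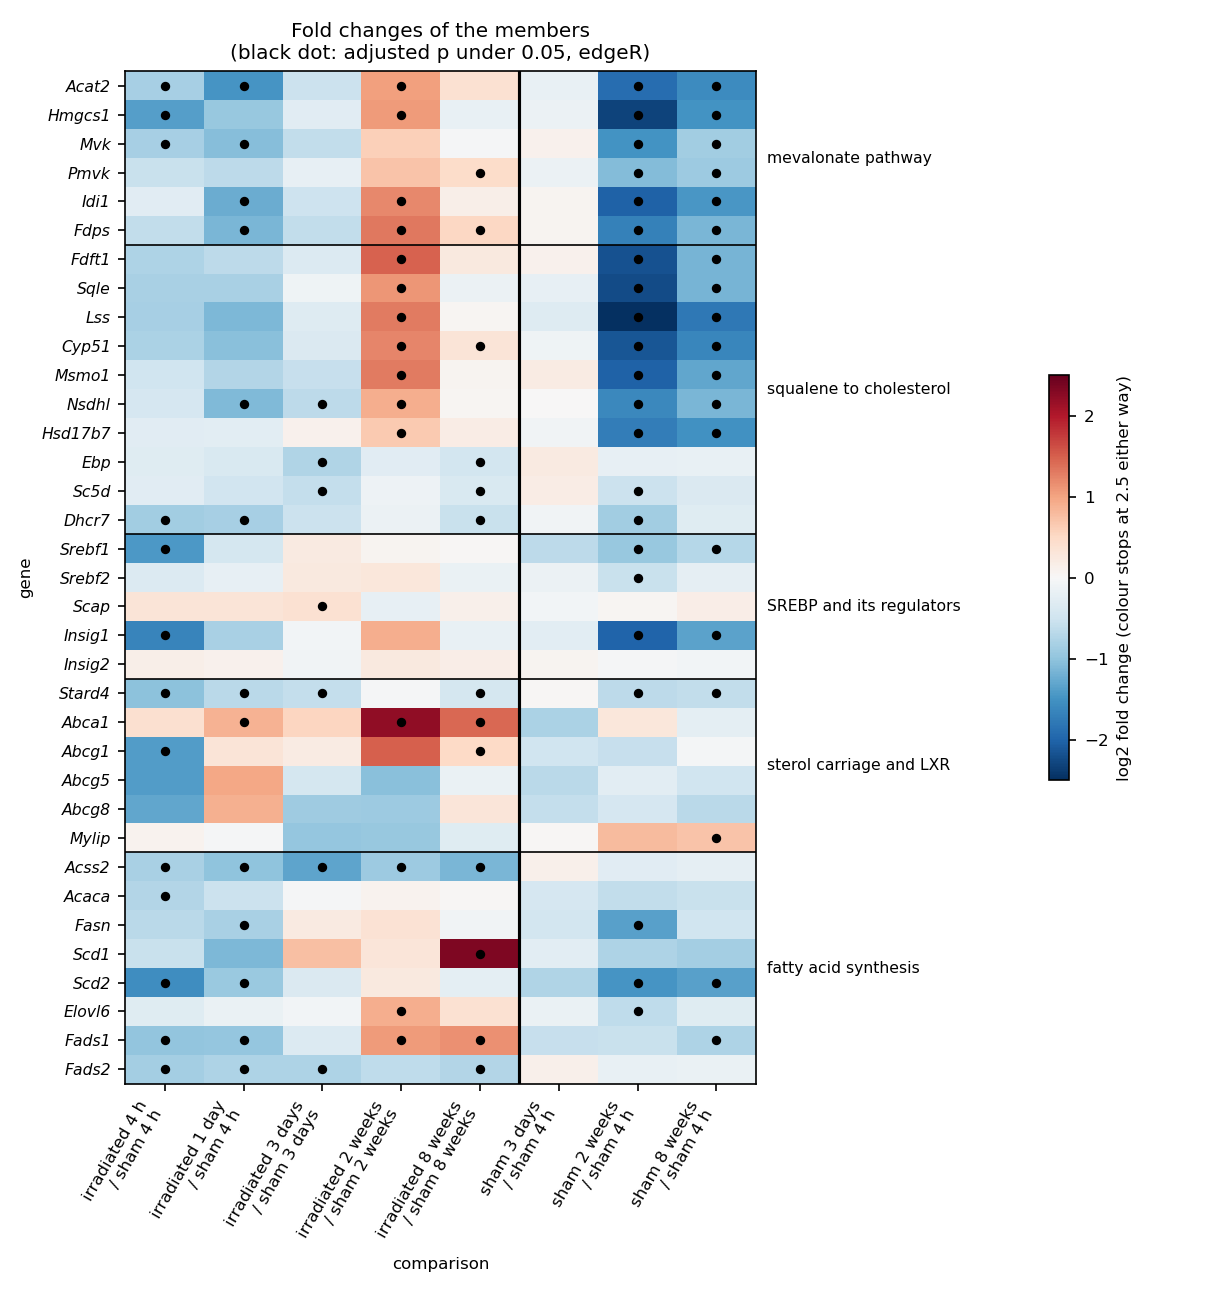
Rows are the 35 members by role and columns the 5 radiation comparisons and the 3 comparisons of later shams with the shams at 4 h, with colour for the log2 fold change and a dot for an adjusted p under 0.05 in edgeR. The dots are most dense in the column of sham mice at 2 weeks (22 members), and Acss2 has a dot in all 5 radiation columns.

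The mevalonate pathway turns acetyl-CoA into farnesyl diphosphate, the building block of sterols. Of its 6 genes 3 were lower at 4 h PI, 4 were lower at 1 day, 0 were called at 3 days (4 lower with the replicate block), 4 were higher at 2 weeks and 2 were higher at 8 weeks PI. Of all genes tested, 5.72% were lower at 4 h PI, 2.03% at 1 day and 10.1% at 3 days (14.1% with the block). Called higher were 16.5% of all genes at 2 weeks and 21.5% at 8 weeks PI. Hmgcs1, whose product makes hydroxymethylglutaryl-CoA, had 318, 349.9 and 173 CPM at 4 h PI, against 759.7, 765 and 649 CPM in sham mice at 4 h. The groups did not overlap (log2 fold change -1.37, SE 0.23, adjusted p = 0.00904). With 219, 451 and 443 CPM at 1 day PI, it did not pass the test (log2 fold change -0.96, adjusted p = 0.0802). Hmgcs1 had 247, 410.1 and 254 CPM at 2 weeks PI, against 128, 163 and 143 CPM in the sham mice at 2 weeks. All irradiated mice were above all shams of that time (log2 fold change 1.07, SE 0.23, adjusted p = 0.0194) and below all sham mice at 4 h. The sham mice at 2 weeks were lower than those at 4 h by far more than the spread within either group (log2 fold change -2.31, SE 0.12, adjusted p = 0.000145), and the sham mice at 8 weeks, with 298, 229.5 and 245 CPM, were lower as well (log2 fold change -1.49, SE 0.12, adjusted p = 0.00332).

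Acat2, the thiolase that joins acetyl-CoA units, had 37.99, 53.6 and 42.3 CPM at 4 h PI and 19.96, 30.2 and 35.04 CPM at 1 day PI, against 98.2, 74.8 and 66.3 CPM in the sham mice at 4 h. Both irradiated groups lay wholly below the shams (log2 fold change -0.83, SE 0.17, adjusted p = 0.0191 at 4 h and log2 fold change -1.48, SE 0.22, adjusted p = 0.00951 at 1 day in edgeR). It had 39.4, 46.1 and 43.2 CPM at 2 weeks PI, against 23.3, 22.3 and 17.3 CPM in shams, again without overlap (log2 fold change 1.03, SE 0.15, adjusted p = 0.00762). Sham mice at 8 weeks had 29.2, 26.3 and 24.9 CPM and were lower than sham mice at 4 h (log2 fold change -1.57, SE 0.15, adjusted p = 0.00337). Mvk, mevalonate kinase, had 23.1, 32.02 and 16.3 CPM at 4 h PI and 15.5, 18.9 and 25.9 CPM at 1 day PI, against 48.7, 43.2 and 35.4 CPM in shams at 4 h. It was called at both times (log2 fold change -0.83, SE 0.22, adjusted p = 0.0483 at 4 h and log2 fold change -1.07, SE 0.20, adjusted p = 0.0228 at 1 day). In sham mice at 2 weeks Mvk was at 15.4, 19.2 and 10.2 CPM, lower than at 4 h (log2 fold change -1.49, SE 0.21, adjusted p = 0.0088).

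Fdps, farnesyl diphosphate synthase, had 59.3, 86.1 and 98.6 CPM at 1 day PI, against 204, 179 and 158 CPM in sham mice at 4 h (log2 fold change -1.14, SE 0.18, adjusted p = 0.0138). The highest irradiated mouse stayed far below the lowest sham mouse. It had 126, 156 and 134 CPM at 2 weeks PI, against 53.6, 65.96 and 47.4 CPM in shams (log2 fold change 1.32, SE 0.16, adjusted p = 0.00463). Fdps had 111, 123 and 122 CPM at 8 weeks PI, against 84.3, 75.5 and 86.1 CPM (log2 fold change 0.52, SE 0.09, adjusted p = 0.00376). Neither pair of groups overlapped. Idi1, the isomerase of isopentenyl diphosphate, had 77.98, 152 and 147 CPM at 1 day PI, against 352, 267 and 275 CPM in shams at 4 h (log2 fold change -1.24, SE 0.24, adjusted p = 0.0298). It had 159, 203 and 138 CPM at 2 weeks PI, against 70.4, 90.3 and 57.1 CPM in shams (log2 fold change 1.204, SE 0.22, adjusted p = 0.0126). Its sham mice at 2 weeks were all lower than those at 4 h (log2 fold change -2.02, SE 0.18, adjusted p = 0.00111), and so were those at 8 weeks, with 109, 97.1 and 119.9 CPM (log2 fold change -1.45, SE 0.13, adjusted p = 0.00337). Pmvk, phosphomevalonate kinase, had 27.3, 23.3 and 27.8 CPM at 8 weeks PI, against 20.02, 16.9 and 20.1 CPM in shams (log2 fold change 0.45, SE 0.12, adjusted p = 0.0234). It was not called at the other times PI, where its log2 fold change lay between -0.66 and 0.71.

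From squalene to cholesterol, 10 genes were measured. Of these 1 was lower at 4 h PI, 2 at 1 day and 3 at 3 days (6 with the replicate block), 7 were higher at 2 weeks PI, and 1 was higher and 3 lower at 8 weeks PI. The shares of all genes called lower were 5.72% at 4 h, 2.03% at 1 day and 10.1% at 3 days PI (14.1% with the block). At 2 weeks PI 16.5% were higher, and at 8 weeks PI 21.5% were higher and 16.5% lower. Fdft1, squalene synthase, had 103, 138 and 107 CPM at 2 weeks PI, against 38.4, 46.8 and 40.5 CPM in sham mice at 2 weeks. The groups were far apart (log2 fold change 1.47, SE 0.16, adjusted p = 0.00345), yet the sham mice at 4 h held 197, 191 and 183 CPM, above every mouse of both. Between the sham mice at 2 weeks and those at 4 h the gap was wider than the radiation effect (log2 fold change -2.17, SE 0.10, adjusted p = 6.57e-05). The sham mice at 8 weeks had 86.5, 79.997 and 87.2 CPM (log2 fold change -1.17, SE 0.08, adjusted p = 0.00275).

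Lss, lanosterol synthase (mm9, chr10:75994333-76019883, plus strand), showed the widest drift. It had 37.2, 67.6 and 52.9 CPM at 2 weeks PI, against 21.6, 22.7 and 19.9 CPM in shams of that time (log2 fold change 1.2999, SE 0.22, adjusted p = 0.0108), and 192, 144 and 125 CPM in sham mice at 4 h. Its sham mice at 2 weeks lay lower than those at 4 h with no overlap (log2 fold change -2.83, SE 0.16, adjusted p = 0.000215). Nsdhl, a sterol dehydrogenase, had 21.4, 29.9 and 36.2 CPM at 1 day PI, against 70.6, 65.3 and 52.4 CPM in shams at 4 h (log2 fold change -1.096, SE 0.19, adjusted p = 0.0198). It had 33.8, 44.4 and 44.6 CPM at 3 days PI, against 51.8, 71.8 and 66.7 CPM (log2 fold change -0.65, SE 0.16, adjusted p = 0.0266), and at 2 weeks PI 33.8, 44.3 and 35.4 CPM, against 20.2, 22.9 and 17.7 CPM (log2 fold change 0.903, SE 0.16, adjusted p = 0.0126). It was thus below its shams at 3 days and above them at 2 weeks, with no overlap in either case.

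Cyp51, the lanosterol demethylase, and Msmo1, the methylsterol oxidase, followed Fdft1. Cyp51 had 61.95, 76.01 and 54.6 CPM in sham mice at 2 weeks and 96.3, 83.9 and 95.9 CPM in sham mice at 8 weeks, against 316, 308 and 233 CPM in sham mice at 4 h (log2 fold change -2.14, SE 0.16, adjusted p = 0.000669 at 2 weeks and log2 fold change -1.63, SE 0.13, adjusted p = 0.00332 at 8 weeks). Msmo1 had 108, 105 and 101 CPM in sham mice at 8 weeks, against 266, 277 and 235 CPM in sham mice at 4 h (log2 fold change -1.303, SE 0.09, adjusted p = 0.00275). Called higher at 2 weeks PI were also Cyp51 (log2 fold change 1.23), Msmo1 (1.31), Sqle, the squalene epoxidase (1.104), and Hsd17b7, a ketosteroid reductase (0.66). At 8 weeks PI only Cyp51 of these was called (log2 fold change 0.32, SE 0.09, adjusted p = 0.0302), with 114, 122 and 110.3 CPM in irradiated mice.

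The last enzymes of the chain, Ebp, Sc5d and Dhcr7, were not called at 2 weeks PI (log2 fold changes -0.27, -0.13 and -0.15). Each was called lower at some of the other times PI, which differed by gene. Dhcr7, which makes cholesterol from its immediate precursor, had 77.7, 85.9 and 72.5 CPM at 4 h PI and 70.01, 80.8 and 89.8 CPM at 1 day PI, against 169, 134 and 129 CPM in sham mice at 4 h (log2 fold change -0.87, SE 0.13, adjusted p = 0.00476 at 4 h and log2 fold change -0.84, SE 0.14, adjusted p = 0.0141 at 1 day). It had 74.02, 75.5 and 89.01 CPM at 8 weeks PI, against 118, 113 and 117 CPM (log2 fold change -0.55, SE 0.10, adjusted p = 0.00431). No irradiated mouse reached a sham mouse at these 3 times. Ebp, the sterol isomerase, had 44.9, 58.2 and 55.1 CPM at 3 days PI, against 74.3, 88.8 and 102 CPM (log2 fold change -0.76, SE 0.15, adjusted p = 0.0124), and 56.4, 42.7 and 48.4 CPM at 8 weeks PI, against 67.98, 65.3 and 67.4 CPM (log2 fold change -0.45, SE 0.12, adjusted p = 0.0225). Sc5d, a sterol desaturase, had 80.5, 105 and 109 CPM at 3 days PI, against 143, 155 and 144 CPM (log2 fold change -0.597, SE 0.13, adjusted p = 0.0175), and 77.03, 82.3 and 73.7 CPM at 8 weeks PI, against 93.4, 98.9 and 109.8 CPM (log2 fold change -0.38, SE 0.10, adjusted p = 0.0173). In both genes all irradiated mice lay below all shams of the same time. The 7 surface colonocyte markers summed to 576 to 1452 CPM at 8 weeks PI, against 6062 to 6503 CPM in the shams, and 6 of the 7 were called lower. At 3 days PI they summed to 6391 to 7769 CPM, against 6797 to 8298 CPM, with 3 called lower (Slc26a3, Aqp8 and Car4) and Car1 called higher, and their part in the result was not tested.

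**Figure D4:**
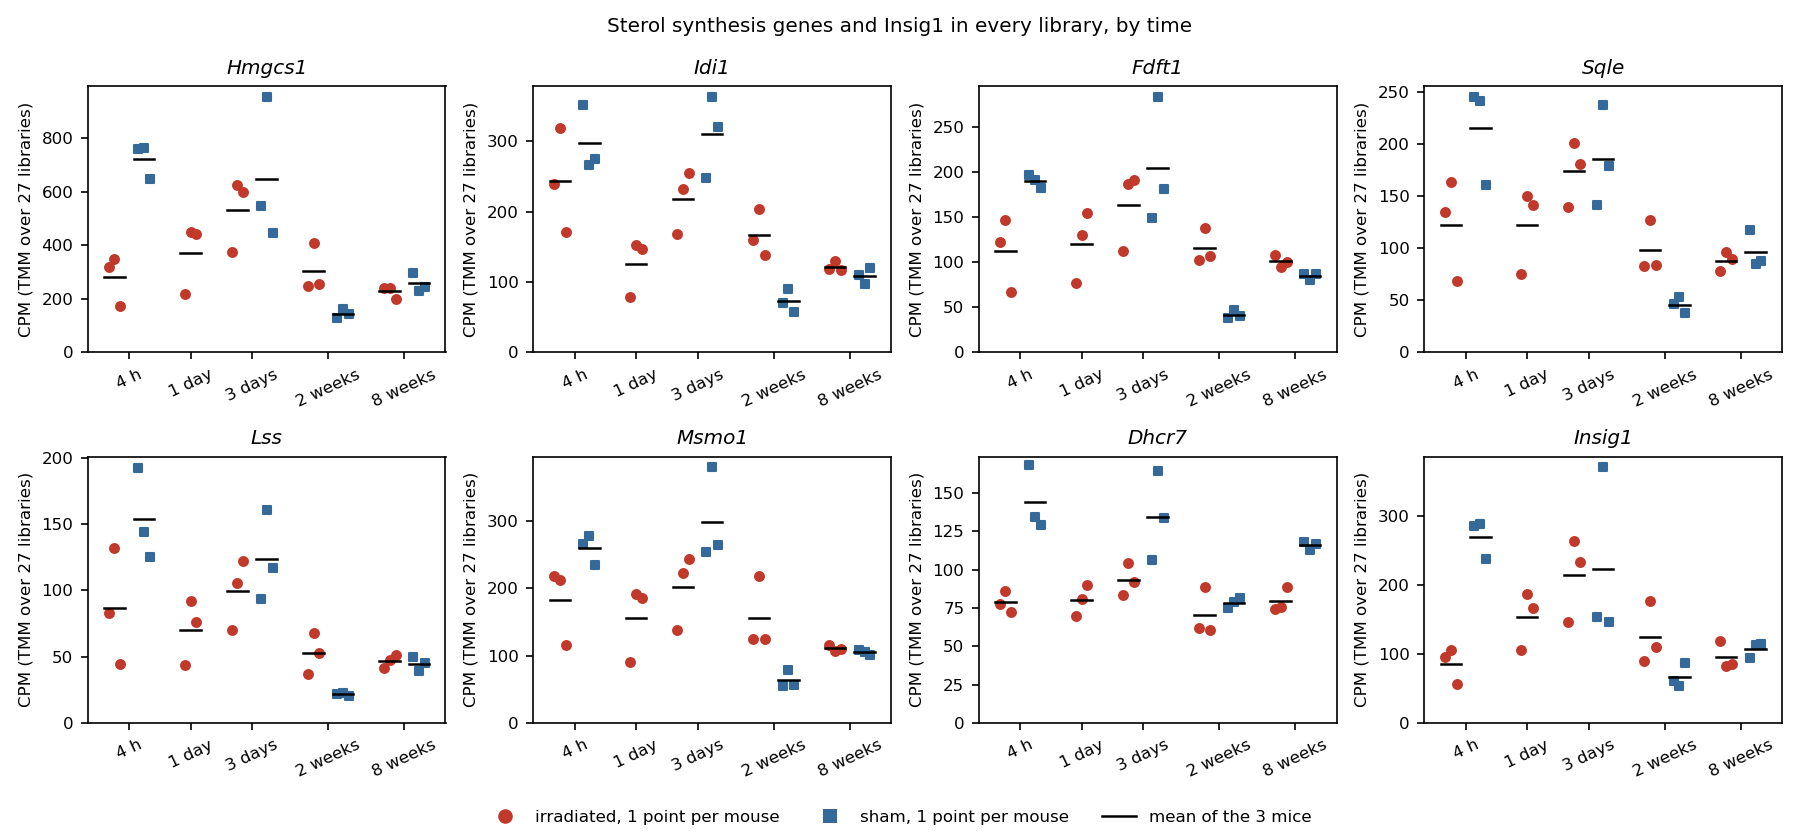
CPM of 7 sterol synthesis genes and Insig1 in each of the 27 libraries by time, irradiated mice as circles to the left of sham mice as squares, with bars for the mean of 3 mice. Hmgcs1, Idi1, Fdft1, Sqle, Lss and Msmo1 are lowest in sham mice at 2 weeks, while Dhcr7 is below its shams without overlap at all times PI but 2 weeks.

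Among the SREBP genes and regulators, the largest changes were at 4 h PI. Srebf1, which encodes the SREBP of fatty acid synthesis and is itself an LXR target, had 65.4, 80.1 and 57.4 CPM at 4 h PI, against 206, 188 and 153 CPM in sham mice at 4 h. The highest irradiated mouse was below the lowest of all 12 sham mice (log2 fold change -1.43, SE 0.15, adjusted p = 0.00137). It was at 145, 128 and 125 CPM at 1 day PI, which did not pass the test against the same shams (log2 fold change -0.45, adjusted p = 0.105), and the irradiated mice at 1 day were higher than those at 4 h (log2 fold change 0.98, SE 0.13, adjusted p = 0.00502). Insig1, which retains SCAP when sterols are plentiful and is itself switched on by SREBP, had 95.9, 105 and 55.8 CPM at 4 h PI, against 285, 288 and 237 CPM in shams (log2 fold change -1.66, SE 0.22, adjusted p = 0.00318). Sham mice at 2 weeks, with 60.5, 53.4 and 87.3 CPM, overlapped that range and were lower than those at 4 h (log2 fold change -1.996, SE 0.18, adjusted p = 0.00129), and sham mice at 8 weeks had 93.97, 113 and 114 CPM (log2 fold change -1.33, SE 0.12, adjusted p = 0.00337).

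Srebf2, which encodes the SREBP of sterol synthesis, was not called in any radiation comparison without the replicate block, with log2 fold changes from -0.34 at 4 h to 0.28 at 2 weeks PI. With the block it was called higher at 3 days PI (log2 fold change 0.25, SE 0.08, adjusted p = 0.0467). Its sham mice at 2 weeks had 195, 191 and 173 CPM, against 283, 306 and 246 CPM in sham mice at 4 h (log2 fold change -0.57, SE 0.11, adjusted p = 0.0224). Scap had 87.5, 96.7 and 80.3 CPM at 3 days PI, against 67.6, 73.9 and 60.02 CPM in shams (log2 fold change 0.38, SE 0.11, adjusted p = 0.0491), a small difference whose call was lost when any of several libraries was left out. Insig2 was called nowhere, and all its log2 fold changes against the shams of the same comparison lay between -0.09 and 0.25. Srebf1 had 101, 98.3 and 81.4 CPM in sham mice at 2 weeks and 118, 105 and 108 CPM in sham mice at 8 weeks and was lower in both than in sham mice at 4 h (log2 fold change -0.95, SE 0.13, adjusted p = 0.00756 at 2 weeks and log2 fold change -0.72, SE 0.12, adjusted p = 0.0335 at 8 weeks). The 7 cycling cell markers summed to 54.4 to 125 CPM at 4 h PI, against 286 to 435 CPM in the shams, and to 121 to 199.5 CPM at 1 day PI. Their part in the changes at 4 h was not tested.

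The sterol carriers and LXR targets split by gene. Stard4, which moves cholesterol between membranes, was lower at 4 h, 1 day, 3 days and 8 weeks PI. It had 163, 202 and 145 CPM at 4 h PI and 175, 236 and 237 CPM at 1 day PI, against 364, 351 and 326 CPM in sham mice at 4 h (log2 fold change -1.03, SE 0.13, adjusted p = 0.00296 at 4 h and log2 fold change -0.67, SE 0.13, adjusted p = 0.0282 at 1 day). It had 204, 265 and 240.1 CPM at 3 days PI, against 363, 425 and 279 CPM (log2 fold change -0.602, SE 0.17, adjusted p = 0.0368). Stard4 had 186, 155 and 161 CPM at 8 weeks PI, against 232, 220.2 and 225 CPM (log2 fold change -0.44, SE 0.11, adjusted p = 0.0144). No irradiated mouse reached the lowest sham mouse of its comparison. The sham mice at 2 weeks, with 228, 213 and 217 CPM, were lower than those at 4 h (log2 fold change -0.65, SE 0.09, adjusted p = 0.00623), and those at 8 weeks were too (log2 fold change -0.61, SE 0.08, adjusted p = 0.0172).

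Abca1, which loads cholesterol onto lipid-poor apolipoproteins, rose instead. It had 68.9, 56.7 and 51.1 CPM at 1 day PI, against 35.8, 28.3 and 32.7 CPM in sham mice at 4 h (log2 fold change 0.88, SE 0.14, adjusted p = 0.0135). It had 180.0, 62.8 and 297 CPM at 2 weeks PI, against 39.3, 36.7 and 40.7 CPM (log2 fold change 2.21, SE 0.51, adjusted p = 0.0243). Abca1 had 65.6, 70.2 and 83.99 CPM at 8 weeks PI, against 26.1, 30.5 and 24.4 CPM (log2 fold change 1.43, SE 0.14, adjusted p = 0.000274). At each of these times every irradiated mouse was above all 12 sham mice. At 3 days PI Abca1 was not called in edgeR (log2 fold change 0.54, adjusted p = 0.0608). With the replicate block it was called higher there (log2 fold change 0.55, SE 0.13, adjusted p = 0.021). The spread at 2 weeks PI was wide, and mouse 2, the lowest, was also the lowest in the neutrophil sum (866 CPM), where mouse 3 was the highest (19629 CPM) as it was for Abca1. Mouse 2 was also the lowest in the macrophage marker Adgre1, which had 134, 28.1 and 123 CPM at 2 weeks PI, against 5.34, 6.33 and 3.36 CPM in the shams. All 7 macrophage markers summed to 343 to 900.5 CPM at 2 weeks PI, against 58.8 to 85.9 CPM in the shams, and to 241 to 367 CPM at 8 weeks PI, against 67.9 to 79.5 CPM. At 1 day PI they summed to 51.1 to 78.3 CPM, against 52.7 to 75.0 CPM in sham mice at 4 h, and the neutrophil markers to at most 1.58 CPM, against at most 1.02 CPM. The part of either list in the result was not tested.

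Abcg1, an exporter of cholesterol to lipoproteins, had 6.35, 4.76 and 6.92 CPM at 4 h PI, against 8.64, 26.5 and 12.6 CPM in shams (log2 fold change -1.401, SE 0.38, adjusted p = 0.0489), and the sham mice were spread widely. Its 19.3, 22.6 and 17.7 CPM at 1 day PI were not called against those shams (log2 fold change 0.33, adjusted p = 0.692) but were above the irradiated mice at 4 h with no overlap (log2 fold change 1.73, SE 0.18, adjusted p = 0.00253). Its effect was largest at 2 weeks PI, where it was not called (log2 fold change 1.48, SE 0.51, adjusted p = 0.0737). It had 19.8, 21.8 and 23.8 CPM at 8 weeks PI, against 14.6, 16.1 and 15.1 CPM (log2 fold change 0.503, SE 0.12, adjusted p = 0.0129). Abcg5 and Abcg8 moved in the same way between the first times. Abcg5 had 73.6, 57.8 and 78.7 CPM at 1 day PI, against 17.8, 12.1 and 11.1 CPM in irradiated mice at 4 h (log2 fold change 2.37, SE 0.20, adjusted p = 0.0015). Abcg8 had 29.2, 26.5 and 37.2 CPM at 1 day PI, against 8.34, 6.66 and 5.5998 CPM at 4 h PI (log2 fold change 2.18, SE 0.19, adjusted p = 0.00176). Neither was called against shams at any time without the replicate block, and with it Abcg8 was lower at 3 days PI (log2 fold change -0.803, adjusted p = 0.0456). The sham mice at 4 h were uneven, with 27.7, 66.01 and 15.1 CPM of Abcg5 and 11.9, 30.3 and 8.33 CPM of Abcg8, mouse 2 being the highest for Abcg1 as well. The 2 genes overlap head to head (mm9, chr17:85057574-85082351 on the minus strand and chr17:85075642-85099673 on the plus strand), and with the strand setting of the counting not given in the sources used here their reads cannot be told apart where they overlap. Mylip, a ubiquitin ligase that removes lipoprotein receptors, was called after irradiation only at 3 days PI with the replicate block (log2 fold change -0.93, SE 0.12, adjusted p = 0.00223) and had 42.6, 56.4 and 50.1 CPM in sham mice at 8 weeks, against 30.5, 29.9 and 30.8 CPM in sham mice at 4 h (log2 fold change 0.72, SE 0.11, adjusted p = 0.0284).

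In fatty acid synthesis, Acss2 and Fads2 lay below the shams at every time PI. Acss2, which makes acetyl-CoA from acetate (mm9, chr2:155343684-155411460, plus strand), had 129, 143 and 92.4 CPM at 4 h PI and 95.01, 113 and 109 CPM at 1 day PI, against 238, 214 and 191 CPM in sham mice at 4 h (log2 fold change -0.82, SE 0.16, adjusted p = 0.0157 at 4 h and log2 fold change -1.01, SE 0.11, adjusted p = 0.0021 at 1 day). It had 94.9, 97.3 and 92.8 CPM at 3 days PI, against 204, 273 and 228 CPM (log2 fold change -1.32, SE 0.12, adjusted p = 0.000501). It had 72.3, 131 and 75.3 CPM at 2 weeks PI, against 176, 169 and 181 CPM (log2 fold change -0.92, SE 0.24, adjusted p = 0.0346). Acss2 had 97.9, 65.7 and 85.9 CPM at 8 weeks PI, against 198, 171 and 179 CPM (log2 fold change -1.14, SE 0.16, adjusted p = 0.00131). All 15 irradiated mice lay below all 12 sham mice. Its sham groups were not called apart, with log2 fold changes of 0.13, -0.28 and -0.23 at 3 days, 2 weeks and 8 weeks against 4 h.

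Fads2, a desaturase of polyunsaturated fatty acids, showed the same arrangement of all 15 irradiated mice below all 12 shams. It had 309.9, 324 and 266 CPM at 4 h PI and 297, 342 and 301 CPM at 1 day PI, against 614, 499.7 and 507 CPM in sham mice at 4 h (log2 fold change -0.84, SE 0.12, adjusted p = 0.00475 at 4 h and log2 fold change -0.78, SE 0.12, adjusted p = 0.0107 at 1 day). It had 362, 371 and 312 CPM at 3 days PI, against 591, 653 and 515 CPM (log2 fold change -0.77, SE 0.12, adjusted p = 0.00461). Fads2 had 314, 259 and 306 CPM at 8 weeks PI, against 513, 469 and 464 CPM (log2 fold change -0.73, SE 0.12, adjusted p = 0.00284). With 212, 402 and 288 CPM at 2 weeks PI, it did not pass the test (log2 fold change -0.64, adjusted p = 0.0931). Beside both genes, the 7 surface colonocyte markers summed to 1192, 2974 and 1150.3 CPM in mice 1, 2 and 3 at 2 weeks PI, against 3621 to 4835 CPM in the shams, and to 1452, 576 and 1039 CPM at 8 weeks PI, against 6062 to 6503 CPM. Mouse 2 was the highest of the 3 at 2 weeks PI and the lowest at 8 weeks PI in this sum, in Acss2 and in Fads2. The markers were not of 1 direction at 2 weeks PI, where Car1, Aqp8 and Ceacam20 were called lower. Slc9a3 was called higher there (log2 fold change 5.63, adjusted p = 0.0209 in edgeR), and Slc26a3, Krt20 and Car4 were not called. In the first days PI the sum overlapped that of the shams, with 4940 to 9769 CPM at 4 h PI and 4398 to 7361 CPM at 1 day PI, against 3968 to 7482 CPM in sham mice at 4 h. The part of these cells in the result was not tested. The neighbour of Fads2, Fads1, the other desaturase of this chain, turned from lower to higher against the shams of each comparison. Fads1 had 14.6, 10.9 and 13.03 CPM at 4 h PI and 14.8, 10.9 and 13.2 CPM at 1 day PI, against 28.1, 23.5 and 24.4 CPM in sham mice at 4 h (log2 fold change -0.98, SE 0.14, adjusted p = 0.00488 at 4 h and log2 fold change -0.96, SE 0.15, adjusted p = 0.0124 at 1 day). It had 39.5, 26.4 and 39.8 CPM at 2 weeks PI, against 16.8, 20.8 and 13.5 CPM (log2 fold change 1.06, SE 0.23, adjusted p = 0.0213). Fads1 had 26.1, 37.9 and 34.6 CPM at 8 weeks PI, against 17.2, 12.5 and 14.9 CPM (log2 fold change 1.13, SE 0.17, adjusted p = 0.00194). The groups did not overlap at any of these 4 times. Sham mice at 8 weeks were themselves lower in Fads1 than those at 4 h (log2 fold change -0.76, SE 0.14, adjusted p = 0.0382). Those at 2 weeks were not called lower (log2 fold change -0.56, adjusted p = 0.0737). The irradiated mice at 2 and 8 weeks PI overlapped the sham mice at 4 h in Fads1.

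Scd2, a stearoyl-CoA desaturase, had 821, 1044 and 662 CPM at 4 h PI, against 2804, 2573 and 2004 CPM in shams, with no overlap (log2 fold change -1.54, SE 0.19, adjusted p = 0.00246). Scd2 was also low in sham mice at 2 weeks, with 964, 939 and 729 CPM (log2 fold change -1.47, SE 0.16, adjusted p = 0.00345), and at 8 weeks, with 1119, 941 and 823 CPM (log2 fold change -1.35, SE 0.16, adjusted p = 0.00885), so that the level at 4 h PI overlapped that of later shams. Scd1, its relative in liver and fat, had 85.1, 337 and 482 CPM at 8 weeks PI, against 97.7, 37.8 and 42.4 CPM (log2 fold change 2.33, SE 0.63, adjusted p = 0.0223), and mouse 1 lay within the range of the shams. The 6 adipocyte markers summed to 43.3, 169 and 416 CPM in these 3 irradiated mice, against 68.3, 2.17 and 0.815 CPM in the shams. Scd1 had 33.9, 43.6 and 379 CPM at 3 days PI, where the adipocyte sum was 7.95, 1.35 and 293 CPM. In mouse 3 at 3 days and in mice 2 and 3 at 8 weeks PI both were high together. Their part in the result was not tested. The 7 sebaceous gland markers were at 33.5 CPM in mouse 3 at 8 weeks PI and at most 4.53 CPM elsewhere. Near-identical stretches of the Scd genes may have been shared out in counting, in a way not given in the sources used here.

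Elovl6, the elongase of saturated fatty acids, had 80.3, 102 and 64.2 CPM at 2 weeks PI, against 44.2, 46.9 and 40.9 CPM (log2 fold change 0.905, SE 0.18, adjusted p = 0.0167), with no overlap, and its sham mice at 2 weeks were below those at 4 h (log2 fold change -0.63, SE 0.09, adjusted p = 0.00975). Fasn, fatty acid synthase, was called lower at 1 day PI (log2 fold change -0.81, SE 0.16, adjusted p = 0.0301) and had 209, 164 and 143 CPM in sham mice at 2 weeks, against 522, 472 and 341 CPM in sham mice at 4 h (log2 fold change -1.36, SE 0.19, adjusted p = 0.00723). Acaca, acetyl-CoA carboxylase, was called at 4 h PI alone (log2 fold change -0.73, SE 0.18, adjusted p = 0.0384), and was between -0.53 and 0.09 on the log2 scale at the other times.

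**Figure D5:**
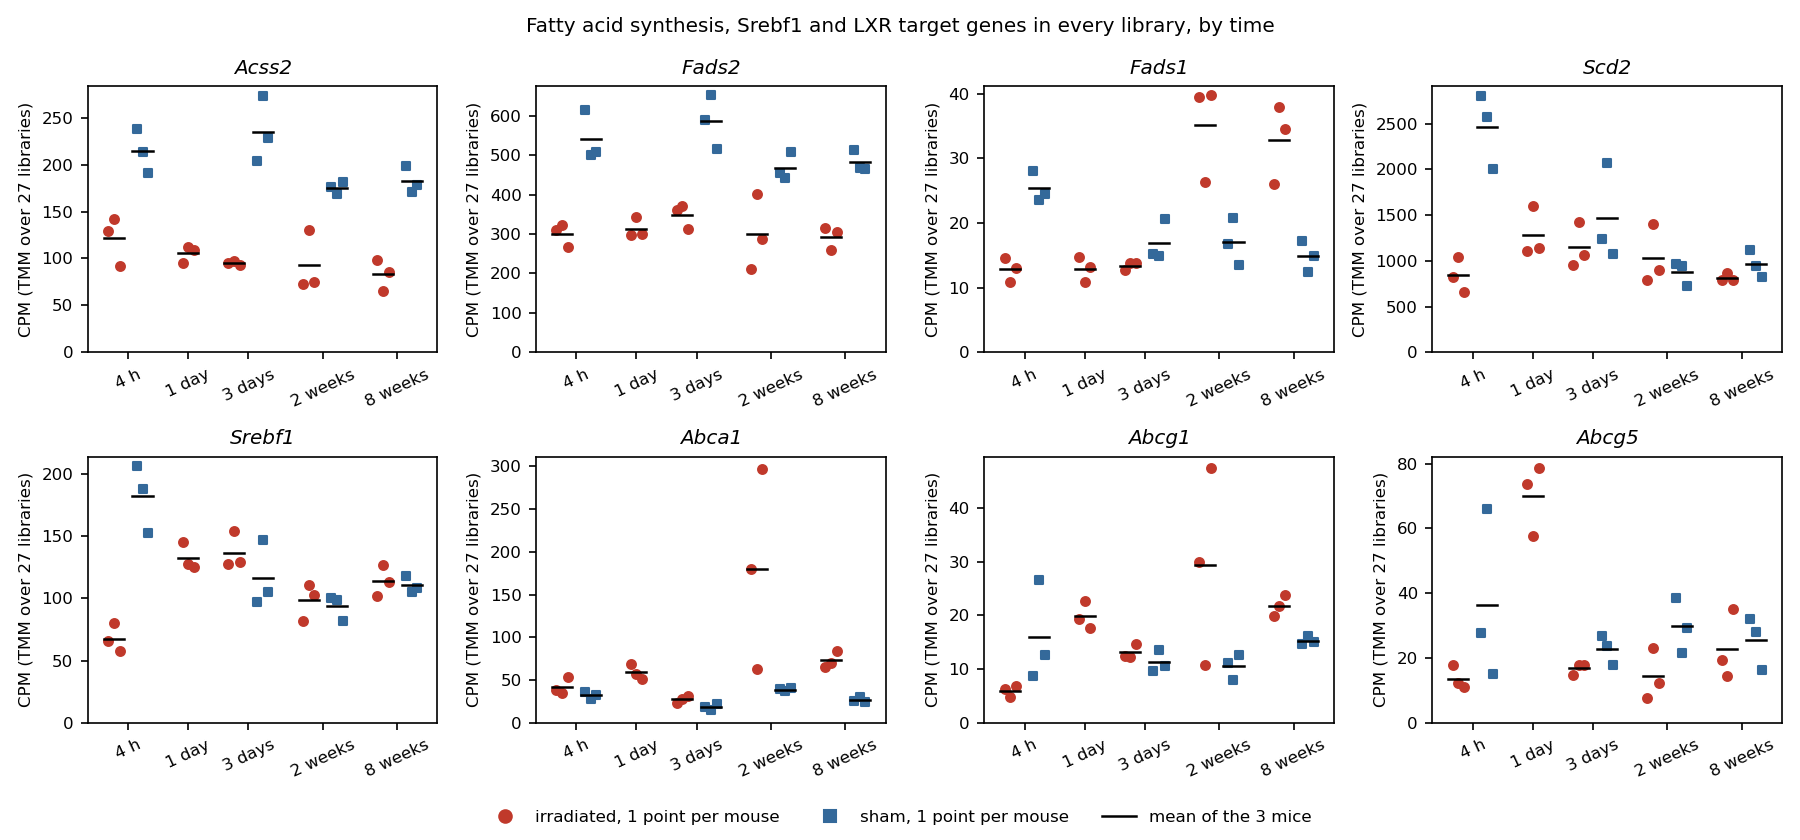
CPM of 4 fatty acid synthesis genes, Srebf1 and 3 LXR target genes in each of the 27 libraries by time, irradiated mice as circles to the left of sham mice as squares, with bars for the mean of 3 mice. Acss2 and Fads2 have all 15 irradiated mice below all 12 sham mice, and Abcg5 is highest in irradiated mice at 1 day.

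Changes of the radiation effect between times were tested directly, except between 4 h and 1 day PI. Between 4 h and 1 day PI, which share their shams, the irradiated groups were compared with each other, and 4 members were higher at 1 day (Srebf1, Abcg1, Abcg5 and Abcg8) and 0 lower, against 6.02% and 5.38% of all genes. These 4 kept their call in every alternative. With no sham mice killed at 1 day, a change of the radiation effect there cannot be told apart from a change with time alone. Between 3 days and 4 h, an interaction test found 5 effects higher at 3 days and 0 lower, against 9.59% and 7.94% of all genes. Srebf1 (difference of log2 fold changes 1.68, SE 0.25, adjusted p = 0.00145) kept its call with each library left out, while Insig1, Scd2, Acaca and Abcg1 did not. The count was 1 without irradiated mouse 2 at 3 days. Without sham mouse 1 or 2 at 4 h or irradiated mouse 1 at 4 h the count was 2. The same count was left without sham mouse 3 or irradiated mouse 3 at 3 days. Without irradiated mouse 3 at 4 h, or without sham mouse 1 or irradiated mouse 1 at 3 days, the count was 3. Leaving out some other library raised it.

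Between 2 weeks and 3 days the effects were higher at 2 weeks in 13 members and lower in 1 (Scap), against 10.2% and 6.96% of all genes. The 13 were 5 of 6 mevalonate genes, 6 of 10 from squalene to cholesterol, Elovl6 and Fads1, and Nsdhl had the smallest adjusted p (difference of log2 fold changes 1.54, SE 0.24, adjusted p = 0.0032), followed by Fdps, whose difference was the largest of the 13 (difference of log2 fold changes 1.92, SE 0.31, adjusted p = 0.00352). This test sets each irradiated group against its own shams, and the shams of the 2 times differ as described. Between 8 weeks and 2 weeks, 0 effects were higher and 1 was lower, against 0.784% and 0.495% of all genes, that of Fdft1 (difference of log2 fold changes -1.21, SE 0.18, adjusted p = 0.0104), with 14 members at an unadjusted p under 0.05. DESeq2 called 9 there, all lower. For these unadjusted and DESeq2 counts the share of all genes is not given here. Without irradiated mouse 2 at 2 weeks the count was 10, without mouse 1 it was 4, without mouse 3 it was 3, and without sham mouse 2 at 2 weeks it was 2.

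A count that takes no sham group as the only reference asks which members lay beyond all 12 sham mice. At 4 h PI 0 members were above and 5 below (Srebf1, Stard4, Abcg1, Acss2 and Fads2), against 5.71% and 4.77% of all 15930 genes. At 1 day PI 2 were above (Scap and Abca1) and 3 below (Ebp, Acss2 and Fads2), against 3.30% and 2.79%. At 3 days PI 1 was above (Scap) and 3 below (Ebp, Acss2 and Fads2), against 7.90% and 5.62%. At 2 weeks PI 1 was above (Abca1) and 2 below (Acss2 and Fads2), against 14.1% and 7.80%. At 8 weeks PI 2 were above (Scap and Abca1) and 4 below (Ebp, Stard4, Acss2 and Fads2), against 17.1% and 9.98%. None of the 6 mevalonate genes was beyond all shams at any time. The count at 4 h PI was 9 without irradiated mouse 1, that at 1 day PI 8 without sham mouse 2 at 4 h, and that at 2 weeks PI 9 and 5 without irradiated mouse 2 and 3. For a single gene, an exact two-sided permutation test of 3 mice against 3 cannot give a p under 0.1, so the calls rest on edgeR's shared estimate of the spread.

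Further genes of the same pathways were followed beside the members. Of 15 further sterol genes tested, 0 were higher and 3 lower at 4 h PI, 2 and 3 at 1 day, 1 and 3 at 3 days, 4 and 0 at 2 weeks, and 3 and 2 at 8 weeks PI. Of all genes tested, 5.78% were called higher and 5.72% lower at 4 h PI, and 1.97% and 2.03% at 1 day. The shares were 10.4% and 10.1% at 3 days, 16.5% and 9.30% at 2 weeks, and 21.5% and 16.5% at 8 weeks PI. Aacs, which makes acetoacetyl-CoA from ketone bodies, was lower at 1 day PI (log2 fold change -1.12, adjusted p = 0.0224) and higher at 2 weeks PI (log2 fold change 0.86, adjusted p = 0.0104), and like the members it was lower in sham mice at 2 weeks than in those at 4 h (log2 fold change -1.82, adjusted p = 0.000327). Vldlr, a lipoprotein receptor, was higher at 1 day (log2 fold change 0.91, adjusted p = 0.0122), 3 days (log2 fold change 1.05, adjusted p = 0.00109) and 8 weeks PI (log2 fold change 0.98, adjusted p = 0.00881). Of 16 further genes of fatty acid and glyceride synthesis, 1 was higher and 7 lower at 4 h PI, 0 and 2 at 1 day, 1 and 3 at 3 days, 5 and 3 at 2 weeks, and 4 and 3 at 8 weeks PI. Acsl3, an acyl-CoA synthetase, had 211, 171 and 177 CPM at 4 h PI, against 505, 843 and 502 CPM (log2 fold change -1.72, adjusted p = 0.00243), and Acly, which makes acetyl-CoA from citrate, had 371, 374 and 329 CPM, against 818, 743 and 609 CPM (log2 fold change -1.01, adjusted p = 0.00289). Me1, the malic enzyme that supplies NADPH, rose at 8 weeks PI to 42.5, 62.98 and 51.9 CPM, against 8.46, 7.204 and 8.502 CPM (log2 fold change 2.69, adjusted p = 5.16e-05).

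Of 14 further LXR and oxysterol genes, 13 tested at 4 h gave 1 higher and 1 lower, 12 tested at 1 day gave 0 and 0, 13 tested at 3 days gave 0 higher and 2 lower, and 14 tested later gave 6 and 0 at 2 weeks and 7 and 4 at 8 weeks PI. The shares of all genes called higher and lower were 5.78% and 5.72% at 4 h and 1.97% and 2.03% at 1 day PI. They were 10.4% and 10.1% at 3 days, 16.5% and 9.30% at 2 weeks, and 21.5% and 16.5% at 8 weeks PI. Apoe, an apolipoprotein of macrophages and an LXR target, had 617, 615 and 903 CPM at 2 weeks PI, against 136, 145 and 128 CPM (log2 fold change 2.39, adjusted p = 0.00301), and 529, 665 and 737 CPM at 8 weeks PI, against 142, 146 and 130.1 CPM (log2 fold change 2.196, adjusted p = 7.51e-05). Ch25h, which makes an oxysterol, had 10.1, 2.81 and 4.98 CPM at 2 weeks PI, against 0.755, 0.302 and 0.351 CPM (log2 fold change 3.65, adjusted p = 0.0106). Both rose at the times when the macrophage and neutrophil markers given beside Abca1 were high, and the part of those cells was not tested. Cyp27a1, which makes another oxysterol, was higher at 4 h PI (log2 fold change 0.86, adjusted p = 0.00634) and lower at 3 days (log2 fold change -0.89, adjusted p = 0.00808) and 8 weeks PI (log2 fold change -0.91, adjusted p = 0.00386).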

How the data were processed

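RNA of 27 libraries was analysed, each taken as 1 mouse, in 9 groups of 3 named by the labels of treatment and time. The authors deposited raw whole-number counts for each gene, not normalized, and FPKM values for the same genes. A gene length column was not used. Per the submitters' processing notes, reads were trimmed with fastp 0.18.0, aligned with HISAT2 to mm9, assembled with StringTie 1.3.1 and quantified with RSEM. Not given in the sources used here were the counting program, its strand setting and its annotation.

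In 12 comparisons, each fitted to its own groups only, edgeR's quasi-likelihood test (edgeR 4.0.16, R 4.3.3) was run after filterByExpr and TMM scaling. Benjamini-Hochberg adjustment covered all genes tested. For a symbol found in more than 1 row, the row with the highest mean count was used. The study's own test was DESeq2, which was run as an alternative. P-values measure the spread between these mice. The lowest chi-square per degree of freedom between mice of a group was 10.3, so no pair of libraries within a group repeated each other; pairs across groups were not compared. Members, further lists and markers were chosen with earlier results of these data known. Values in every library are given for the 3 called members with the smallest p in each role and comparison, and at most 2 genes in each direction are named from a further list. The steps were tested on simulated counts.

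Alternatives were DESeq2 1.42.0, its size factors, no filter on low counts, limma 3.58.1 on log2(FPKM + 1) with a mean FPKM of at least 1, all 9 groups in 1 fit, other sham controls, the replicate number as a block, and each library left out. For the block, the correlation of the deviations of same-numbered mice was computed. Between irradiated and sham mice at 3 days all same-numbered pairs correlated above 0.1 (0.325 to 0.431, against at most 0.0738 for other pairs, with the pairing seen in the data and not stated by the labels), and in the other 11 comparisons they did not. Gene coordinates are those of mm9, matched by Ensembl identifier for 34 of 35 members, and promoters those of RefSeq on GRCm38.p6. Plots were made with matplotlib 3.10.9 under Python 3.11.15.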

Additional observations from a re-analysis of the deposited data

Results flagged for a closer look

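Several members differed between times, by tests of the difference in edgeR. The difference was that of the radiation effect, except between 1 day and 4 h PI. No sham mice were killed at 1 day, so a change with time alone cannot be told apart there. Between 1 day and 4 h PI, tested as irradiated mice at 1 day against irradiated mice at 4 h because both times share their shams, the log2 differences were 0.98 for Srebf1, 1.73 for Abcg1, 2.37 for Abcg5 and 2.18 for Abcg8. Between 3 days and 4 h PI the radiation effect was higher at 3 days by 1.68 for Srebf1, 1.61 for Insig1, 1.64 for Abcg1, 0.73 for Acaca and 1.21 for Scd2 on the log2 scale. Between 2 weeks and 3 days PI it was higher at 2 weeks by 1.56 for Acat2, 1.36 for Hmgcs1, 1.21 for Mvk, 1.72 for Idi1, 1.92 for Fdps, 1.80 for Fdft1, 1.21 for Sqle, 1.62 for Lss, 1.59 for Cyp51, 1.88 for Msmo1, 1.54 for Nsdhl, 0.97 for Elovl6 and 1.40 for Fads1, and its difference for Scap was -0.59. Between 8 weeks and 2 weeks PI the difference for Fdft1 was -1.21. The differences at 2 weeks hold the low level of the sterol genes in the sham mice of that time as well as the level in the irradiated mice, and which of the sham levels is the fitting control was not tested. With each library left out in turn, 4 of 4 calls between 1 day and 4 h PI were kept, and 1 of 5 between 3 days and 4 h. Between 2 weeks and 3 days 10 of 14 were kept, and between 8 weeks and 2 weeks 1 of 1. With 3 mice to a group, no library was tested as an outlier.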

How the results depend on the processing

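The 13 members called at 4 h PI, the 22 in sham mice at 2 weeks against 4 h and the 14 in the change of the effect between 2 weeks and 3 days stayed within 1.5 times their count in every alternative run. With DESeq2 the counts were 26 instead of 13 at 1 day PI, 15 instead of 7 at 3 days PI, 3 instead of 0 for sham mice at 3 days, 9 instead of 4 between irradiated mice at 1 day and 4 h, 8 instead of 5 for the effect at 3 days against 4 h, and 9 instead of 1 for the effect at 8 weeks against 2 weeks. With limma on log2(FPKM + 1) they were 4 at 3 days PI and 3 for the effect at 3 days against 4 h and 2 for that at 8 weeks against 2 weeks, which was 0 with all 9 groups in 1 fit. With the replicate block 18 were called at 3 days PI and 10 for the effect at 3 days against 4 h, and the block moved no other count by over 1.5 times. With the mean of the 4 sham groups as controls 7 were called at 1 day PI, and with the sham mice at 4 h as controls 12 at 3 days and 23 at 8 weeks PI. With the sham mice at 3 days as controls, chosen after seeing the data, the count at 1 day PI was 15. For most alternatives, leaving out a library included, the share of all genes called is not given here. A changed member count there does not show a change particular to the members. The cause of these differences was not tested.

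Some called members changed sign with other controls. With the mean of the 4 sham groups the log2 fold change was 0.11 for Acat2 at 4 h, 0.10 for Nsdhl at 3 days and, at 2 weeks PI, -0.24 for Hmgcs1, -0.21 for Sqle, -0.29 for Lss, -0.013 for Nsdhl and -0.22 for Hsd17b7, and -0.31 for Cyp51 at 8 weeks. With the sham mice at 4 h as controls it was, at 2 weeks PI, -0.89 for Acat2, -1.24 for Hmgcs1, -0.83 for Idi1, -0.37 for Fdps, -0.71 for Fdft1, -1.13 for Sqle, -1.54 for Lss, -0.92 for Cyp51, -0.73 for Msmo1, -0.72 for Nsdhl and -1.07 for Hsd17b7, and at 8 weeks PI -0.44 for Pmvk, -0.59 for Fdps and -1.29 for Cyp51.

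With each library left out in turn the counts ran between 5 and 12 at 1 day, 2 and 10 at 3 days, 3 and 22 at 2 weeks and 6 and 17 at 8 weeks PI, 11 and 21 in sham mice at 8 weeks, 1 and 7 for the effect at 3 days against 4 h, and 1 and 10 for that at 8 weeks against 2 weeks. The counts beyond all sham mice ran between 5 and 9 at 4 h, 5 and 8 at 1 day and 3 and 9 at 2 weeks PI. Low counts limited no member, since all passed the filter.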
